A study of Mus musculus with 8 samples.

Results

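Interferon-stimulated genes are the genes that cells switch on when they receive an interferon signal. A set of 37 of them, chosen by symbol with earlier results of these data known, was examined in mammary tumours of mice given SKI606 or vehicle. SKI606, or bosutinib, is a drug that inhibits kinases of the Src and Abl families. Of the 37 genes, 35 were read by at least 1 array probe annotated to a single symbol, out of 18193 genes read in the same way, and 57 probes covered the 35. The set holds 26 genes known mainly as targets of type I interferon, of which 24 were measured, and 11 genes known mainly as targets of interferon gamma, all measured. Isg15, whose probe carries more than 1 symbol, and Ifi44 were not analysed here.

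The study asked how SKI606 affects the differentiation of mammary tumours. The tumours came from 4 SKI606-treated and 4 vehicle-treated samples, all from female FVB/N-Tg(MMTV-PyVT)634Mul/J mice, genotype MMTV-PyMT. In these mice the promoter of mouse mammary tumour virus drives the polyoma middle T oncogene in mammary epithelium, so both groups carry the transgene. SKI606 was given by oral gavage at 100 mg/kg. The sources used here do not give age, length of treatment or the time between the last dose and sampling, and no mouse without the transgene was part of the comparison. RNA was hybridised to the Affymetrix Mouse Genome 430 2.0 array.

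Type I interferons bind the receptor chains Ifnar1 and Ifnar2, and the signal reaches the nucleus as a complex that holds Stat2 and Irf9 and reads the interferon-stimulated response element (ISRE). Interferon gamma, made mostly by T and NK cells, binds Ifngr1 and Ifngr2, and its signal is read at the gamma-activated site (GAS). Type I targets are mostly antiviral effectors and RNA sensors, whereas interferon gamma is known in tumours for raising antigen presentation and chemokines that attract T cells. Many genes answer to both, so the division into 2 lists is one of main use, not of exclusive control.

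The promoters of 4 genes from the comparison that follows show both kinds of element. Rsad2 is the type I gene with the lowest p-value, and Gbp2, Irf8 and Irf1 are interferon gamma genes with positive fold changes. Only members whose window holds a match were eligible, so a match in each of the 4 was fixed by the choice. Tapbp, whose window holds none, was passed over for that reason. The 250 bases before the transcription start are given 5′ to 3′ along the strand of the gene, from RefSeq on GRCm38.p6. Capitals mark a match to the ISRE core GAAANNGAA or to the GAS core TTCNNNGAA, on either strand.
Rsad2: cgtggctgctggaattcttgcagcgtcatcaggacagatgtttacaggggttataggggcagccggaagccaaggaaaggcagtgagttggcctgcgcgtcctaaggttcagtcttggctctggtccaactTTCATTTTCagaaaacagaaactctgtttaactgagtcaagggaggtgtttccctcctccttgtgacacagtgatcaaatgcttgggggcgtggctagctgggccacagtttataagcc
Gbp2: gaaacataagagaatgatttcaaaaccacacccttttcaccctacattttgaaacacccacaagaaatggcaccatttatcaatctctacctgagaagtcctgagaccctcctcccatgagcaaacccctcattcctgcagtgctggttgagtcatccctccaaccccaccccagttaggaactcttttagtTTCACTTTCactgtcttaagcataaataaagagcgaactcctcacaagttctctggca
Irf8: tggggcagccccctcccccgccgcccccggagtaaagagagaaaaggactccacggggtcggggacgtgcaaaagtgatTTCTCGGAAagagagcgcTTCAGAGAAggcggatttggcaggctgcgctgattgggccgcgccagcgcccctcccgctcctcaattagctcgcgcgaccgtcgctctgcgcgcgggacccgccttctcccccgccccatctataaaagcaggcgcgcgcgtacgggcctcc
Irf1: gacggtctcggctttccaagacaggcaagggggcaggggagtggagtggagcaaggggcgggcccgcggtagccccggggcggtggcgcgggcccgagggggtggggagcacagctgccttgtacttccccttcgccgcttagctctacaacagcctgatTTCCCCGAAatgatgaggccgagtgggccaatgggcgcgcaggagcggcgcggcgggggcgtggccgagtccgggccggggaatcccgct
The Rsad2 sequence lies at chr12:26456453-26456702 on the minus strand, with the first base of an ISRE match 119 bases before the start. The Gbp2 sequence lies at chr3:142620413-142620662 on the plus strand, with an ISRE match 58 bases before the start. Irf8 (chr8:120736108-120736357, plus strand) held GAS matches 171 and 153 bases before the start, and Irf1 (chr11:53769764-53770013, plus strand) held a GAS match 90 bases before it.

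A RefSeq window from 250 bases before to 50 bases after the start was found for 26 of the measured members. The ISRE core was present in 9 of 17 type I genes (52.9%) and 5 of 9 interferon gamma genes (55.6%), against 9.76% of 27025 genes with such a window. The GAS core was present in 4 type I genes (23.5%) and 3 interferon gamma genes (33.3%), against 9.55% of all genes. The 2 cores were searched independently and may overlap. Bst2 and Igtp, 1 gene from each list, held both, as did 384 of all genes, while the windows of Irf7, Irf9, Oasl1, Oasl2, Xaf1, Tap1 and Tapbp held neither. These matches describe letters in a window, not sites in use.

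The arrays had median signals of 15 to 16 in SKI606 samples, and of 15, 17, 23 and 18 in vehicle samples 1 to 4. Vehicle 3 stood apart, with 27.8% of its signals below 10, against 34.0% to 41.6% on the other arrays. The 3′ to 5′ signal ratio of the Actb control probes, a sign of RNA integrity, was 1.66 to 3.35 in SKI606 and 1.77 to 3.83 in vehicle samples, highest in vehicle 3. Markers of mammary tumour epithelium were bright in every sample, as the label of the tissue says, with summed signals of 22664 to 27766 in SKI606 and 23950 to 27962 in vehicle samples. Samples SKI606 1, SKI606 4 and vehicle 3 stood apart by squamous keratin genes, with summed signals of 14252, 15475 and 9440, against 663 to 2421 in the other 5. The lists and the genes that lead them are therefore given also without these 3 samples. The number of arrays limits the precision, and a p-value here reflects only how far these samples scatter. The labels mention RNA of each mouse without naming animals, so that part of this scatter may be technical.

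No member passed the test between SKI606 and vehicle tumours. The test was a linear model (limma) on log2(signal + 16) fitted over all 45037 probes. P-values were adjusted by the Benjamini-Hochberg method, and the threshold was 0.05. It called 0 of the 35 members and 0 of all 18193 genes (0%), and the smallest adjusted p among the members was 0.558. At an unadjusted limma p under 0.05, 5 members were higher in SKI606 tumours, against 6.07% of all genes, and 1 was lower, against 4.31% of all genes. All 5 higher members belonged to the interferon gamma list (Gbp2, Tapbp, Irf8, Irf1 and Tap2), and the lower one, Rsad2, to the type I list. Gbp2, Tap2 and Tapbp had every SKI606 value above every vehicle value, against 2.39% of all genes, and no member had every SKI606 value below every vehicle value, against 2.03% of all genes.

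The 2 lists, drawn up with earlier results of these data known, had different midpoints. Of the 11 interferon gamma genes, 9 had a positive and 2 a negative log2 fold change, with a median of 0.43 and a range of -0.10 to 0.84. Of the 24 type I genes, 11 were above and 13 below 0, with a median of -0.01 and a range of -0.62 to 0.35. Over all genes the median was -0.02, and 47.2% were above 0. The median of the type I list minus that of the interferon gamma list was -0.43, with -0.43 to -0.35 when any 1 sample was left out. It was smaller in size, at -0.25, over probes with a mean signal of at least 50, at -0.29 with a pseudocount of 64 and at -0.31 without the 3 samples of high squamous keratin signals. These fold changes are on the log2(signal + 16) scale, which understates the change of dim genes.

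**Figure D1:**
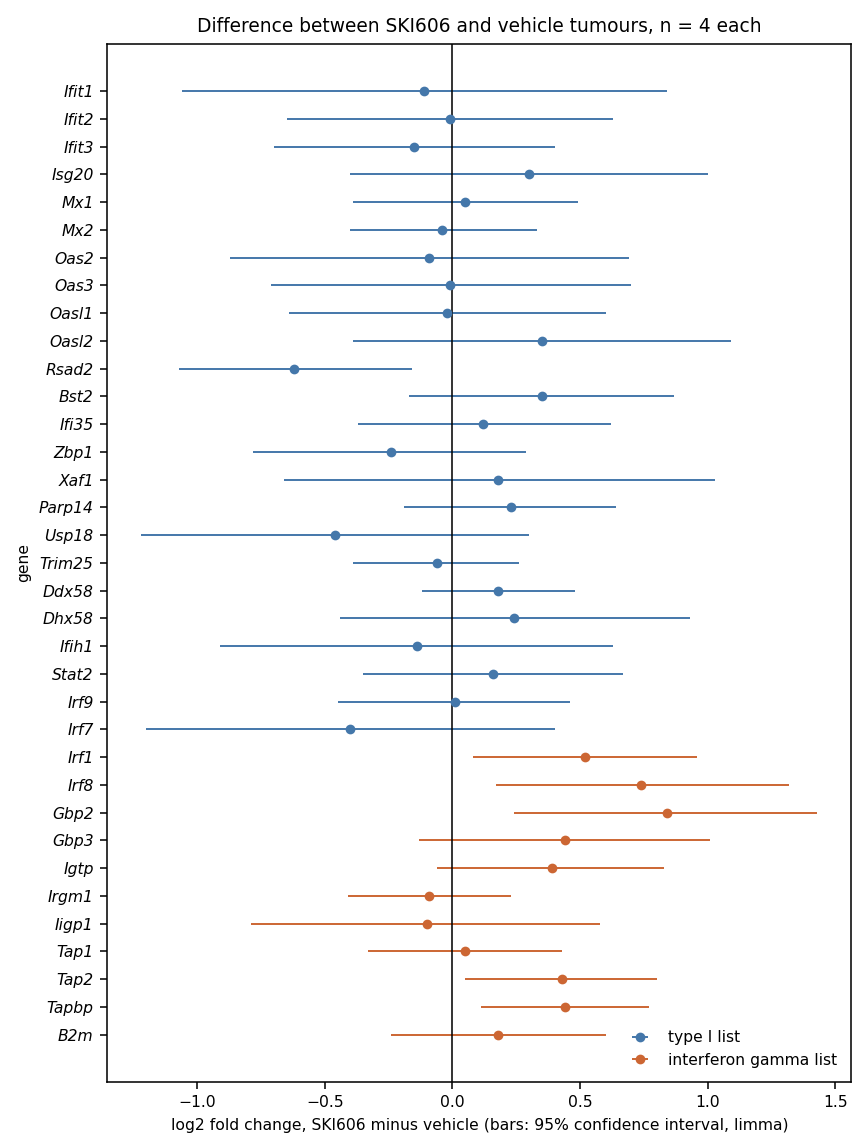
Log2 fold change of each of the 35 measured genes, SKI606 minus vehicle, with its 95% confidence interval from limma (n = 4 each). The type I genes scatter to both sides of 0 with a median of -0.01, while 9 of the 11 interferon gamma genes lie above 0.

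The mean log2 signal of each list in each sample showed how the samples were spread. The interferon gamma list averaged 7.96, 8.16, 8.10 and 8.22 in SKI606 samples 1 to 4, against 7.77, 7.82, 7.52 and 7.93 in vehicle samples 1 to 4. Its lowest SKI606 sample, 1, stood barely above its highest vehicle sample, 4, so that the groups did not overlap but met closely. The type I list averaged 6.62, 6.83, 6.73 and 6.58 in SKI606 samples and 6.61, 6.72, 6.27 and 7.18 in vehicle samples. Here all 4 SKI606 samples lay between vehicle 3, the lowest, and vehicle 4, the highest. The means over samples were 8.11 ± 0.11 in SKI606 and 7.76 ± 0.17 in vehicle samples for the interferon gamma list, and 6.69 ± 0.11 in SKI606 and 6.70 ± 0.38 in vehicle samples for the type I list (SD, n = 4 each).

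**Figure D2:**
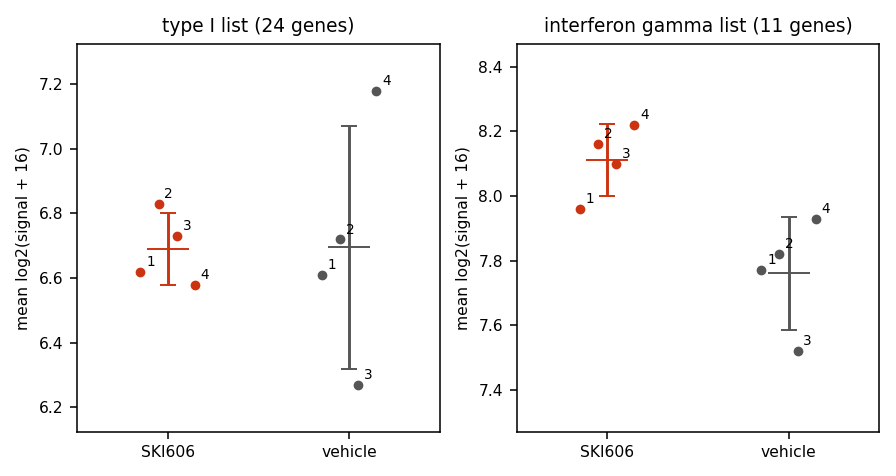
Mean log2(signal + 16) of the 24 type I genes and of the 11 interferon gamma genes in each sample (points, numbered by sample), with the mean and SD of each group (n = 4 each). In the type I list vehicle 4 is highest at 7.18 and vehicle 3 lowest at 6.27, and in the interferon gamma list all 4 SKI606 samples are above the vehicle samples.

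Vehicle 4 set the type I list apart within its own group. It was the highest of the 8 samples in 16 of the 24 type I genes (66.7%), in 1 of the 11 interferon gamma genes (9.1%) and in 15.9% of all genes. Vehicle 3 was the lowest sample in 13 type I genes (54.2%), in 6 interferon gamma genes (54.5%) and in 16.5% of all genes. This was also the array with the highest median signal and the highest 3′ to 5′ ratio of Actb, at 3.83. Vehicle 4, with the highest mean of the type I list, had nearly the same Actb ratio, at 3.78. By the Gapdh control probes the ratio was highest in vehicle 4. The part of these array measures in the low values of vehicle 3 was not tested. Genes of a list share these samples and are not independent of each other. The median SD within groups was 0.42 on the log2 scale for the type I list, 0.29 for the interferon gamma list and 0.31 for all genes. Without vehicle 4 the median of the type I list was 0.15, with 16 genes above 0. Bst2, Dhx58 and Oasl2 then stood at 0.60, 0.53 and 0.64 with an unadjusted limma p under 0.05. Their limma adjusted p were 0.566, 0.637 and 0.639, and 3516 of 45037 probes had such an unadjusted p in either direction. Vehicle 4 was the highest sample in each of these genes, so leaving it out could only raise their fold changes. Without vehicle 3 the median was -0.12, with 7 genes above 0. Usp18 joined Rsad2 there among the lower genes at an unadjusted limma p under 0.05, as 2790 probes had in either direction.

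**Figure D3:**
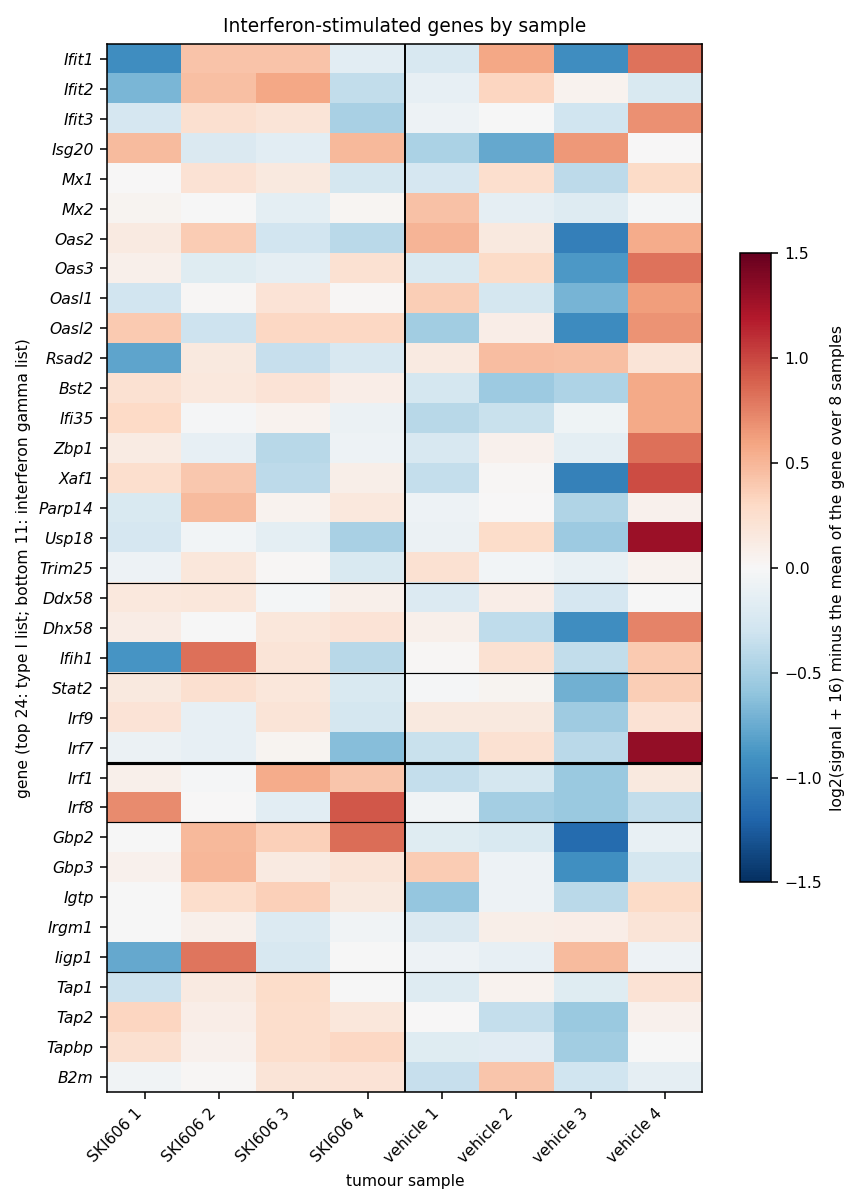
Log2(signal + 16) of each gene minus its mean over the 8 samples, by sample (columns, SKI606 left of the line) and gene (rows, type I genes above the thick line, interferon gamma genes below it). The column of vehicle 4 is high through most of the type I rows but not through the interferon gamma rows, and that of vehicle 3 is low in many rows of both.

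Among the 18 measured antiviral effectors of the type I list, 7 had a positive and 11 a negative fold change, with a median of -0.02. Rsad2, which encodes viperin, an enzyme that makes a chain-terminating nucleotide against viral RNA synthesis, had signals of 13.4, 40.5, 24.1 and 27.0 in SKI606 tumours and 39.8, 54.4, 53.8 and 42.1 in vehicle tumours. SKI606 2 lay just above vehicle 1, and the other SKI606 samples lay below all vehicle samples. The means were 26.2 ± 11.2 in SKI606 and 47.5 ± 7.64 in vehicle tumours (SD, n = 4 each), with a log2 fold change of -0.62 ± 0.20 (SE, limma adjusted p = 0.558). All of these signals are low, and the other Rsad2 probes gave -0.17 and -0.19.

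Bst2, or tetherin, which holds budding viruses at the cell surface, had signals of 172, 164, 170 and 157 in SKI606 tumours and 118, 94.1, 101 and 222 in vehicle tumours. The SKI606 samples were close to each other and above vehicle samples 1 to 3, while vehicle 4 was above them all. Its log2 fold change was 0.35 ± 0.23 (SE, limma adjusted p = 0.712). Ifit1, whose protein binds viral RNA that lacks the host cap methylation, had the widest spread of the effectors, with 15.5, 64.9, 65.1 and 38.0 in SKI606 and 35.0, 73.5, 15.5 and 90.0 in vehicle tumours. Both groups ran through the same range, and the log2 fold change was -0.11 ± 0.42, with a 95% interval from -1.06 to 0.84.

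The other effectors lay between -0.46 and 0.35. The lowest of them was Usp18, a protease that removes Isg15 from proteins and dampens the type I receptor, at -0.46 ± 0.34 (SE). It had signals of 52.0, 63.2, 57.2 and 42.1 in SKI606 tumours and 60.4, 82.2, 39.5 and 182 in vehicle tumours, where vehicle 4 stood far above the rest. Without vehicle 4 its fold change was -0.11, and without vehicle 3 it was -0.72. Usp18 is described for this pattern, after its values were seen. The 2′-5′ oligoadenylate synthetases Oas2 and Oas3, which switch on RNase L, stood at -0.09 and -0.01, and the related Oasl1 and Oasl2 at -0.02 and 0.35. The Mx GTPases Mx1 and Mx2, which block incoming virus, stood at 0.05 and -0.04. Mx1, at 7.88 to 22.2 over the 8 samples, and Mx2, at 2.38 to 12.4, had low signals, as had Oas3 and Ifit2. On the log2(signal + 16) scale a change at such signals is understated. Ifit2 and Ifit3 stood at -0.01 and -0.15, the exonuclease Isg20 at 0.30, the nucleic acid sensor Zbp1 at -0.24, Xaf1, known as a binding partner of the apoptosis inhibitor Xiap, at 0.18, the ADP-ribosyltransferase Parp14 at 0.23, Ifi35 at 0.12 and the ubiquitin ligase Trim25 at -0.06. In Xaf1, Zbp1, Oasl2 and Ifi35, too, vehicle 4 was the highest of the 8 samples, and Xaf1 had 132 to 243 in SKI606 tumours against 369 in vehicle 4.

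The cytoplasmic RNA sensors had fold changes on both sides of 0. Ddx58, which encodes RIG-I and senses RNA with a 5′ triphosphate, had 229, 230, 198 and 215 in SKI606 and 174, 218, 168 and 203 in vehicle tumours, a log2 fold change of 0.18 ± 0.14 (SE, limma adjusted p = 0.744). Dhx58, which encodes the regulator LGP2, had 59.1, 53.6, 62.2 and 64.6 in SKI606 and 57.4, 37.5, 20.6 and 101 in vehicle tumours. The SKI606 tumours were within a narrow band that the vehicle tumours spanned, with a log2 fold change of 0.24 ± 0.31. Ifih1, or MDA5, the sensor of long double-stranded RNA, had 41.1, 172, 105 and 63.2 in SKI606 and 91.4, 108, 65.8 and 123 in vehicle tumours. It varied more within SKI606 tumours than between the groups, at -0.14 ± 0.34. Without vehicle 3 the fold change of Dhx58 was -0.03, and without SKI606 1 that of Ifih1 was 0.13.

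Of the type I transcription factors, Stat2 and Irf9, both parts of the complex that reads the ISRE, stood at 0.16 and 0.01. Irf7, the factor that amplifies type I interferon production, had 268, 262, 296 and 178 in SKI606 tumours and 223, 337, 213 and 737 in vehicle tumours. Vehicle 4 was higher than any other sample by a wide margin, and the groups overlapped in the rest. The log2 fold change was -0.40 ± 0.36 (SE, limma adjusted p = 0.788), and without vehicle 4 it was -0.03. The markers of plasmacytoid dendritic cells, known as strong producers of type I interferon, summed to 112, 132, 123 and 90 in SKI606 tumours and 59, 78, 70 and 168 in vehicle tumours over 4 genes, with Klk1 giving most of the sum. Siglech, the most specific of them, was at 7 to 23.8 in SKI606 and at 1.12, 3.12, 7 and 31.1 in vehicle tumours 1 to 4. Both the sum and Siglech, the latter at low signals, were highest in vehicle 4. Klk1 was highest in SKI606 2, at 103, with 101 in vehicle 4. The part of these markers in the type I values was not tested.

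The transcription factors of the interferon gamma list were both above 0. Irf8, a factor of myeloid cells that also answers to interferon gamma, had 269, 160, 140 and 318 in SKI606 tumours and 152, 107, 103 and 119 in vehicle tumours. SKI606 samples 1 and 4 were the highest, and SKI606 3 lay below vehicle 1. The means were 222 ± 85.7 in SKI606 and 120 ± 22 in vehicle tumours (SD, n = 4 each), and the log2 fold change was 0.74 ± 0.26 (SE, limma adjusted p = 0.558), with 0.54 from its other probe. Without the 3 samples of high squamous keratin signals, which include SKI606 1 and 4, it was 0.24.

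Irf1, an early target of interferon gamma and a driver of antigen presentation genes, had 310, 290, 440 and 397 in SKI606 tumours and 225, 241, 194 and 327 in vehicle tumours. Vehicle 4 lay above SKI606 samples 1 and 2, and the other vehicle samples lay below all SKI606 samples. The means were 359 ± 71.0 in SKI606 and 247 ± 57.0 in vehicle tumours, with a log2 fold change of 0.52 ± 0.20 (SE, limma adjusted p = 0.565).

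Among the 5 GTPases, which act on membranes around microbes inside the cell, 3 were above and 2 below 0. Gbp2, a guanylate-binding protein, had 208, 300, 271 and 387 in SKI606 tumours and 182, 176, 84.9 and 192 in vehicle tumours. All SKI606 values were above all vehicle values, and vehicle 3 was far below the other vehicle samples. The means were 292 ± 74.3 in SKI606 and 159 ± 49.8 in vehicle tumours (SD, n = 4 each), and the log2 fold change was 0.84 ± 0.27 (SE, limma adjusted p = 0.558). Its other probe gave 0.81, there with overlapping groups. The fold change stayed between 0.59 and 1.18 in every alternative setting, the lowest being without vehicle 3 and without the 3 samples of high squamous keratin signals.

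Igtp, an immunity-related GTPase also called Irgm3, had 128, 158, 169 and 144 in SKI606 and 80.5, 121, 93.5 and 160 in vehicle tumours. Vehicle 4 reached the SKI606 range and the others lay below it, with a log2 fold change of 0.39 ± 0.20 (SE, limma adjusted p = 0.637). Gbp3 stood at 0.44 ± 0.25 at low signals, and Irgm1 at -0.09 ± 0.14. Iigp1, the GTPase gene with the widest spread within groups, had 34.2, 133, 56.4 and 69.2 in SKI606 and 65.1, 62.2, 103 and 65.1 in vehicle tumours. Its groups overlapped throughout, and its log2 fold change of -0.10 ± 0.30 changed sign with the probe, the other one giving 0.20.

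The 4 genes that load peptides onto MHC class I molecules were all above 0 on their probes of highest mean, with a median of 0.30. Tapbp, or tapasin, which bridges the peptide transporter to the MHC molecule, had 2334, 2064, 2354 and 2440 in SKI606 tumours and 1731, 1744, 1366 and 1954 in vehicle tumours. All SKI606 values were above all vehicle values, with means of 2298 ± 163 in SKI606 and 1699 ± 244 in vehicle tumours (SD, n = 4 each). The log2 fold change was 0.44 ± 0.15 (SE, limma adjusted p = 0.558), and the other probe gave 0.59, with overlapping groups.

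Tap2, a subunit of the transporter, had 293, 250, 281 and 262 in SKI606 tumours and 232, 178, 152 and 243 in vehicle tumours. The groups did not overlap, with vehicle 4 closest to the SKI606 samples, and the log2 fold change was 0.43 ± 0.17 (SE, limma adjusted p = 0.573). Its partner Tap1 stood at 0.05 ± 0.17, and its other probes, all at low signals, gave -0.28 to -0.12. B2m, the light chain of MHC class I, had 4120, 4313, 4875 and 4939 in SKI606 and 3365, 5704, 3477 and 3877 in vehicle tumours, where the highest value of all was that of vehicle 2. Its log2 fold change was 0.18 ± 0.19 (SE, limma adjusted p = 0.822), and without vehicle 2 it was 0.35, with an unadjusted limma p of 0.0428.

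**Figure D4:**
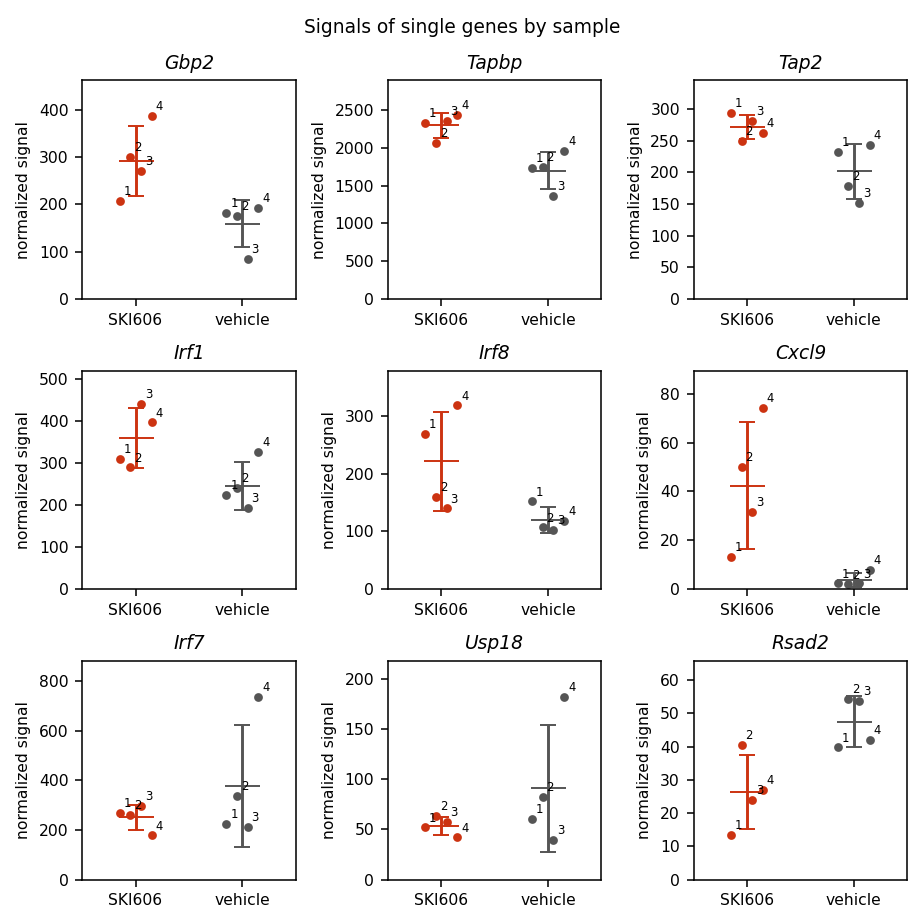
Normalized signal of 9 genes in each sample (points, numbered by sample), with the mean and SD of each group (n = 4 each). Gbp2, Tapbp, Tap2 and Cxcl9 show no overlap between SKI606 and vehicle tumours, Irf7 and Usp18 show 1 high vehicle sample, 4, and Rsad2 is lower in 3 of the 4 SKI606 samples than in all vehicle samples.

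The 5 interferon gamma genes with an unadjusted limma p under 0.05 depended in number on the samples. There were 3 without SKI606 3, where 4678 of 45037 probes had such a p in either direction, against 3771 with all samples. There were also 3 without vehicle 3, where 2790 probes had one, and 6 without vehicle 4, where 3516 did. Without the 3 samples of high squamous keratin signals, where 2 SKI606 tumours stood against 3 vehicle tumours and 1786 probes had such a p, 1 remained, Gbp2. In that last setting the median was 0.28, and 10 of 11 genes were above 0, with Tapbp and Tap2 at 0.28 each and Irf1 at 0.43. The type I median there was -0.03, and Rsad2 stood at -0.36.

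Of a list of 36 other genes of the pathway, 32 were measured, 23 of them above and 9 below 0, with a median of 0.14. limma called 0 of them, and at an unadjusted p under 0.05, 7 were higher in SKI606 tumours, against 6.07% of all genes, and 1 was lower, against 4.31% of all genes. The interferon transcripts themselves were near the bottom of the scale. Ifng, the interferon gamma gene, had 10.2, 1.12, 1.12 and 0.5 in SKI606 tumours and 7, 1.12, 4.88 and 0.125 in vehicle tumours, and Ifnb1, for interferon beta, had 13.4, 12.4, 20.8 and 4.12 in SKI606 and 5.62, 13.4, 11.4 and 1.62 in vehicle tumours. At such signals a difference in these 2 ligands was not detectable. Of the cytokines that induce interferon gamma, Il18 stood at 0.05 and the interleukin 12 subunits Il12a and Il12b at -0.05 and -0.28. The other Il12b probe had the opposite sign, at 0.42, also at low signals.

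All 6 receptor chains were above 0, against 47.2% of all genes, and 3 were higher in SKI606 tumours at an unadjusted p under 0.05, against 6.07% of all genes. Il10rb, shared by the receptors of interferon lambda and interleukin 10, had 562, 459, 544 and 634 in SKI606 and 448, 442, 365 and 356 in vehicle tumours. Its groups did not overlap, with a log2 fold change of 0.43 ± 0.15 (SE, limma adjusted p = 0.558). The interferon gamma receptor chains Ifngr1 and Ifngr2 stood at 0.52 ± 0.21 and 0.68 ± 0.30, although the other Ifngr2 probe gave -0.09. The type I receptor chain Ifnar1 stood at 0.01, with -0.27 from its other probe. Ifnar2 stood at 0.23, and its other probes gave 0.45, with no overlap between the groups, and 0.57, close to the value of Ifngr1. Ifnlr1, the specific chain of the interferon lambda receptor, stood at 0.14. Of the 6 kinases and signal carriers, 2 were above 0.

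The brakes of the pathway differed among themselves. Socs3, which blocks cytokine receptor kinases and answers mainly to interleukin 6 type signals, had 1065, 406, 323 and 1175 in SKI606 tumours and 253, 242, 463 and 283 in vehicle tumours. SKI606 samples 1 and 4 were highest, followed by vehicle 3 and SKI606 2, with a log2 fold change of 1.05 ± 0.42 (SE, limma adjusted p = 0.574). The 3 highest values on this probe were thus those of the samples with high squamous keratin signals, and the part of these in the Socs3 values was not tested. The other Socs3 probes gave 0.88 and 0.89. On the latter, vehicle 3, at 224, lay below vehicle 1, at 245, and vehicle 4, at 256. Pias1, a SUMO ligase that dampens interferon signalling, stood at -0.42 ± 0.17, while 1 of its other probes gave 0.30.

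The 3 chemokines that draw Cxcr3-bearing T cells were all above 0 on their probes of highest mean, and all were dim. Cxcl9 had 13.4, 49.9, 31.6 and 74.1 in SKI606 tumours and 2.38, 2, 2.38 and 8 in vehicle tumours, with no overlap and a log2 fold change of 1.46 ± 0.31 (SE, limma adjusted p = 0.519). Its other probe gave 0.46. Cxcl10 stood at 0.51 ± 0.22, and Cxcl11 at 0.48 ± 0.18 on 1 probe, both with overlapping groups. On another probe Cxcl11 stood at -0.58, with no overlap in the opposite direction. There the signals were 0.5 to 5.75 in SKI606 and 8 to 15.5 in vehicle tumours. Of the 8 other targets on the list 7 were above 0, against 47.2% of all genes, and all are named here after their values were seen. The immunoproteasome subunits Psmb8, Psmb9 and Psmb10, targets of interferon gamma that trim peptides for MHC class I, stood at 0.52, 0.50 and 0.35 with wide intervals. Psmb8 was highest in vehicle 4, at 796, and lowest in vehicle 3, at 229, and its other, dimmer probe gave 0.08. Ciita, the only target below 0, stood at -0.14, with 0.33 and -0.03 from its other probes. Nlrc5 stood at 0.35 at low signals, and Adar at 0.05, with 0.20 and -0.29 from its other probes. The MHC class I heavy chains H2-K1 and H2-D1 stood at 0.24 and 0.13, and their other probes ran from -0.37 to 0.63.

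Markers of immune and stromal cells, like the interferon gamma genes, lay mostly above 0. Of 13 markers of T and NK cells 12 were measured, all above 0 with a median of 0.61, and their signals summed to 270 to 362 in SKI606 tumours against 121 to 242 in vehicle tumours. In 6 of the 12 every SKI606 value was above every vehicle value, against 2.39% of all genes. None of the 12 reached a mean signal of 50. The other probes of Cd8a ran from -0.31 to 0.54, and that of Cd4 gave -0.17. All 10 macrophage markers were above 0 with a median of 0.68, summing to 15023, 9180, 8532 and 20007 in SKI606 and 10268, 7207, 5186 and 7132 in vehicle tumours. The high sums were those of SKI606 1 and 4, the samples with high squamous keratin signals, while the sums of SKI606 2 and 3 lay within the vehicle range. Of the 10 single markers, 2 had every SKI606 value above every vehicle value, against 2.39% of all genes. These were Csf1r and Adgre1, and in the others the groups overlapped. The 5 fibroblast markers, all above 0, summed to 15397 to 26552 in SKI606 and 11908 to 14361 in vehicle tumours. In 3 of these 5 every SKI606 value was above every vehicle value. The 5 endothelial markers, also all above 0, summed to 873, 444, 419 and 872 in SKI606 and 508, 323, 302 and 378 in vehicle tumours, again with SKI606 2 and 3 within the vehicle range. The B cell markers, 3 of 4 measured, summed to 20 to 44 in SKI606 and 20 to 43 in vehicle tumours. The part of these cells in the interferon gamma values was not tested, and in bulk tumour RNA more cells of a type and more RNA per cell cannot be told apart.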

How the data were processed

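Values of 45101 probes on 8 Affymetrix Mouse Genome 430 2.0 arrays were used, 4 SKI606 and 4 vehicle, grouped by their titles per the labels. The deposited values are linear ratios. The sources used here do not name the authors' software or their normalization. From the values, each ratio is a signal divided by the median of its array and, for 26196 probes, by the median of its probe, with a floor of 0.01. Whole-number signals were recovered from the ratios as the smallest whole numbers that give them. They gave back 100% of the probes within a relative 1e-04, with 57 values at the floor. In a check on 4853 simulated probes 99.65% were recovered exactly, with a median factor of 2 where off.

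Signals were quantile normalized, transformed as log2(signal + 16) and fitted by limma 3.58.1 in R 4.3.3 with group as the only term, on 45037 probes without 64 control probes, after the script was tested on simulated data. Of these, 34945 carry 1 symbol, 932 several and 9160 none in the platform annotation. A gene is read from its probe of highest mean among those with 1 symbol. Of 15 members with several probes, 8 had probes of both signs (Ifi35, Zbp1, Xaf1, Parp14, Trim25, Ddx58, Iigp1 and Tap1). Per-sample values are given for the 2 members of lowest p in each role, the member of widest SD in each role, and members whose groups do not overlap, and pathway genes are named if they are a ligand or receptor or had an unadjusted p under 0.05. Members and lists were chosen with earlier results of these data known. Precision is limited by 4 arrays a group. Every pair of arrays differed in at least 91.7% of probes. Alternatives were the scaling, unit, pseudocount, filter, probe choice, array weights, block and samples left out. Some pathway genes on the list are not reported here.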

Additional observations from a re-analysis of the deposited data

Results flagged for a closer look

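Of 74 groups of 4 samples, 1 for each gene and treatment and for each list and treatment, 4 held a sample far from the other 3 by Dixon's test, and chance alone gives this in about 5% of groups. Vehicle 3 accounted for 3 of them. Gbp2, the guanylate-binding protein, had 84.9 in vehicle 3 against 176 to 192 in the other vehicle tumours. Irf9 had 216 in vehicle 3 against 356 to 376 in the others, and Iigp1 had 103 in vehicle 3 against 62.2 to 65.1, the only one of the 3 in which vehicle 3 was the high sample. Oasl2 had 120 in SKI606 2 against 192 to 204 in the other SKI606 tumours. Without vehicle 3 the log2 fold change of Gbp2 was 0.59, against 0.84 with all samples.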

How the results depend on the processing

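No probe and no member was called by limma under any alternative, with 1786 to 4922 of 45037 probes at an unadjusted p under 0.05 where all probes were tested, and the smallest adjusted p of any probe was 0.0743, on log2 of the deposited ratios. The median of the interferon gamma genes was 0.43 and 0.31 to 0.51 with 1 sample left out. On log2 of the deposited ratios it was 0.72, where the median of all probes was 0.10, against -0.02, and 17 of 24 type I genes lay above 0. The type I median was -0.12 to 0.15 with 1 sample left out, and 0.15 over the 14 genes with a mean signal of at least 50. The number of interferon gamma genes with an unadjusted p under 0.05 was 2 with a pseudocount of 1 and 3 on the ratios, against 5. Of the 15 members named by the rule for per-sample values, 11 kept their sign in all alternatives. The others did not. On the ratios Ifih1 was 0.10, Ifit1 0.01 and Iigp1 0.15, and over the mean of all probes Iigp1 was 0.05. Without the 3 samples of high squamous keratin signals Dhx58 was -0.06, Ifih1 0.30, Ifit1 0.05 and Iigp1 0.37. With 1 sample left out Dhx58 ran from -0.03 to 0.53, Ifih1 from -0.44 to 0.13, Ifit1 from -0.44 to 0.18 and Iigp1 from -0.39 to 0.14. The sign turned without SKI606 1 for Ifih1, Ifit1 and Iigp1, without vehicle 3 for Dhx58 and Iigp1, and without vehicle 2 (0.06) or vehicle 4 (0.14) for Ifit1. The cause was not tested. Rsad2 and Ifit1 fell out of the filter on dim probes. The groups share replicate numbers. Deviations from the group means over all probes had correlations of 0.02, 0.11, -0.15 and -0.11 between same-numbered samples. No pairing by number was seen in these values, which cannot exclude that same-numbered samples were handled together. With the replicate number as a block the medians were 0.43 and -0.01, 0 members were called, and 3855 probes had an unadjusted p under 0.05, against 3771. Low signals limit the dim genes, since 27.8% to 41.6% of signals on an array were below 10.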
